A study of Mus musculus with 6 samples.

Results

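The proteasome is the large protease that removes ubiquitin-tagged proteins in the cytoplasm and nucleus. The genes of its subunits and of its dedicated assembly factors were followed by RNA-seq through the stages of lymphoma development in Eμ-Myc mice. They were taken as the protein-coding genes whose symbol begins with Psma to Psmg and a number, in the mouse gene annotation GENCODE vM1 (mm9). The inducible catalytic subunits Psmb8, Psmb9 and Psmb10 were left out of the set. The rule gave 48 gene identifiers with 47 different symbols, of 22337 protein-coding genes and 37991 genes in all. By role, 16 encode the core particle (8 α and 8 β subunits), 9 the base (6 ATPases and 3 other subunits), 9 the lid, 6 the activators and inhibitors and 7 the assembly factors (4 for the core and 3 for the base). The remaining gene, Psmc3ip, matches by name only and encodes a cofactor of meiotic recombination. The 47 symbols lie on 16 chromosomes, with 10 of them on chromosome 11.

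Polyadenylated RNA came from sorted bone marrow B-lineage cells. The labels give 1 gate for all stages, high B220 with low IgM and IgD, whereas the study's methods give that gate for wild-type and premalignant cells and B220-positive cells negative for IgM and IgD for the malignant stage. The Eμ-Myc transgene drives Myc from the immunoglobulin heavy-chain enhancer, so its expression is set in B-lineage cells, and the line is kept heterozygous on C57BL/6. Wild-type mice (4 to 6 weeks, without the transgene), premalignant mice (E{mu}Myc/+, 4 to 6 weeks) and malignant mice (E{mu}Myc/+, 10 to 20 weeks, taken when lymphoma had developed) gave 2 libraries each, 6 in all. According to the study's methods the wild-type animals were littermates, the wild-type and premalignant mice were female and the malignant mice were of both sexes, so the malignant stage cannot be told apart from older age, sex, the gate in the methods or the clone a lymphoma grew from. Wild-type and premalignant mice were of the same age and sex.

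As background, the core particle is a barrel of stacked rings. Its α subunits form the gates, and its inner β rings carry the proteolytic sites. The regulatory particle docks on the gate: its base unfolds substrates with a ring of ATPases, and its lid removes the ubiquitin chain. Alternative activators can take the place of the regulatory particle, and dedicated chaperones of the Psmg group guide the α ring as it forms. Growing B-lineage cells make and turn over large amounts of protein, and B-cell tumours are a clinical setting for proteasome inhibitors.

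The promoters of 4 genes are shown because these genes carry the results below. They are the core chaperone Psmg1 (the gene that rose most), the catalytic subunit Psmb5, and the activators Psme3 and Psme4, which moved in opposite directions. RefSeq (GRCm38.p6) gave a window of 300 bases, 250 before to 50 after the start, for 39 of the 47 symbols, and none for Psma8, Psmb1, Psmb2, Psmb7, Psmc3, Psmd3, Psmd7 and Psmg2. The 250 bases before the start are printed on the gene's strand: Psmg1 at chr16:95990961-95991210 (minus strand), Psmb5 at chr14:54617996-54618245 (minus strand), Psme3 at chr11:101315963-101316212 (plus strand) and Psme4 at chr11:30771525-30771774 (plus strand). Capitals mark, on either strand, the E-box CACGTG (a site type that Myc can bind), the antioxidant response core TGACNNNGC and the CCAAT box, none of which overlap each other here.
Psmg1: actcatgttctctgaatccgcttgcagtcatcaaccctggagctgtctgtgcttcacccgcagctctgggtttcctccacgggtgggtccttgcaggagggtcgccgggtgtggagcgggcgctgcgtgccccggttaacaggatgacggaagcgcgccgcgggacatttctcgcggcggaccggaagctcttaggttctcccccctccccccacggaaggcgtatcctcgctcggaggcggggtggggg
Psmb5: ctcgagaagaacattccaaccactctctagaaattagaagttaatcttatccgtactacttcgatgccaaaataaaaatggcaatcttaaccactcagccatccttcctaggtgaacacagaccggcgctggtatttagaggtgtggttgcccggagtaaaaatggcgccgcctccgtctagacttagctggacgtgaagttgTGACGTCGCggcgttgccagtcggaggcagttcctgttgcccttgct
Psme3: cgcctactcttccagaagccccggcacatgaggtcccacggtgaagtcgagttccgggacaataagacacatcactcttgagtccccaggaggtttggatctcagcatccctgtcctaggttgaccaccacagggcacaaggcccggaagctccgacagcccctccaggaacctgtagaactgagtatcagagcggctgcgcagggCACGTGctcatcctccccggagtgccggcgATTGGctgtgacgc
Psme4: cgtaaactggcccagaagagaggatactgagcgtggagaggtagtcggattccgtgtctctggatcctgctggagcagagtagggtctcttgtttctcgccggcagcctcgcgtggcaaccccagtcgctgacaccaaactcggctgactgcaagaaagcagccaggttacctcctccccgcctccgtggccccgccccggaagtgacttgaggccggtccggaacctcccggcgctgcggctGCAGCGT

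No match to these 3 motifs stood in the Psmg1 window. The Psmb5 window held 1 antioxidant response core, whose leftmost base lies 47 bases before the start. In the Psme3 window there were 1 E-box at 44 bases and 1 CCAAT box at 14 bases before the start, the CCAAT box on the opposite strand. The single match of Psme4, on the opposite strand, began 7 bases before the start and ran past it, so only its part before the start is printed. Over the matched proteasome genes, 3 of 39 had an E-box in a window (Psma4, Psme3 and Psmd9; 7.69%), against 8.09% of 27025 genes with a window. The antioxidant response core stood in 6 of 39 (15.4%, against 14.0% of all genes), and the CCAAT box in 14 of 39 (35.9%, against 41.1%). These shares were near those of all genes, and a match is a description of the letters only.

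The libraries held 30031100 to 53453055 counts on genes, and in each stage replicate 1 was the deeper. Levels below are in CPM, the count scaled to a common library size, normalized by the trimmed mean of M values (TMM), where 3 counts, the limit below which a gene was not told from 0, come to 0.0526 to 0.108 CPM. Counting error alone is covered by that limit. Cd79a, a signalling chain of the B-cell receptor, was present in all 6 libraries, at 1103 and 1480.0 CPM in wild type, 802 and 867 in premalignant and 732 and 834 in malignant. The early B-lineage gene Vpreb1 stood at 115 and 131 CPM in wild type, 9.74 and 4.88 in premalignant and 0.146 and 4.05 in malignant. Dntt stood at 264 and 221 CPM in wild type, 21.2 and 10.8 in premalignant and 0.105 and 6.70 in malignant. Both genes were far lower in premalignant than in wild-type libraries, and lowest in malignant ones. Of 10 pre-B markers tested, 10 were called lower in malignant and 9 in premalignant against wild type (24.3% and 20.3% of all genes). Cd79a was among them, with log2 fold changes of -0.72 and -0.63. The labelled pre-B stage was thus less supported by markers in premalignant than in wild-type libraries, and least in malignant ones. Other cell types also differed by stage. The summed CPM of 10 myeloid markers was 1230 and 2803 in wild type, 377 and 402 in premalignant and 90.0 and 172 in malignant libraries, and all 10 were called lower in both comparisons with wild type. Summed over 8 genes each, erythroid markers stood at 345 and 1353, 84 and 186, and 69 and 80.2 CPM in the same order, and T and NK cell markers at 218 and 81.0, 38.6 and 15.9, and 1.84 and 11.5 CPM. None of the myeloid or erythroid markers was at 0 in any library. Their part in the results below was not tested. In bulk RNA, fewer cells of a type and less RNA per cell cannot be told apart.

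Most proteasome genes were higher in both Myc-driven stages than in wild type. Between the malignant and premalignant stages few genes passed the test, among all genes as among the proteasome genes. A gene was called when its adjusted p (edgeR quasi-likelihood test, Benjamini-Hochberg) was at most 0.1 and its absolute log2 fold change at least 0.5, and 47 of the 48 identifiers passed the filter on low counts. In malignant against wild type, 33 of the 47 were called higher and 1 lower, where 24.9% of the 16683 genes tested were called higher and 24.3% lower. In premalignant against wild type, 34 were called higher and none lower, where 19% of all genes were called higher and 20.3% lower. At an unadjusted p under 0.05 edgeR also had 0 members lower in that comparison, and DESeq2 called 0. In malignant against premalignant, 1 member was called higher and none lower, where 3.73% and 2.45% of all genes were called. At an unadjusted p under 0.05 edgeR gave 6 higher and 3 lower there, and DESeq2 called 3 higher and 1 lower.

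The median log2 fold change of the members was 0.87 in malignant and 0.72 in premalignant against wild type, where the median of all genes tested was -0.02 and -0.08. Between malignant and premalignant the members' median was 0.05 and that of all genes 0.04. By role, the median log2 fold change in malignant against wild type was 1.62 for the core assembly factors, 1.04 for the activators and inhibitors, 0.96 for the lid, 0.83 for the core, 0.75 for the base and 0.32 for the base chaperones. In premalignant against wild type these medians were 1.25, 0.44, 0.82, 0.78, 0.59 and 0.43 in the same order, and differences between roles were not tested. Both malignant libraries lay above both wild-type libraries for 42 of the 47 genes and below them for 2, Psme4 and Psma8, where 35.3% of all genes tested lay above and 36.4% below. Both premalignant libraries lay above both wild-type libraries for 44 genes and below them for 2, Psme4 and Psmb11, where 36.2% of all genes lay above and 41.2% below. Compared within each replicate number, and so at like depth, 42 genes were higher in malignant than in wild type in both replicates and 45 were higher in premalignant, against 38.2% and 39.2% of all genes. The 2 comparisons with wild type share the wild-type libraries.

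Wild-type replicate 2 had the highest myeloid and erythroid marker sums. Without it, 28 members were called higher in malignant and 21 in premalignant against wild type, with 16.9% and 9.76% of all genes then called higher. Without wild-type replicate 1, where T and NK markers were highest, the members' median log2 fold change was 0.98 in malignant and 0.85 in premalignant against wild type. Without wild-type replicate 2 this median was 0.74 and 0.60 in the same order. Each fit that leaves a stage with 1 library assumes that this library varies like the other stages. Without premalignant replicate 1 or 2, 19 and 14 members were called higher in premalignant cells, with 8.79% and 6.80% of all genes then called higher, while the members' median log2 fold change was 0.76 and 0.71. Scaling by total counts, without TMM factors, moved the median of all genes in malignant against wild type to -0.31 and that of the members to 0.58. With this scaling 24 members were called higher, and 17.7% of all genes.

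**Figure D1:**
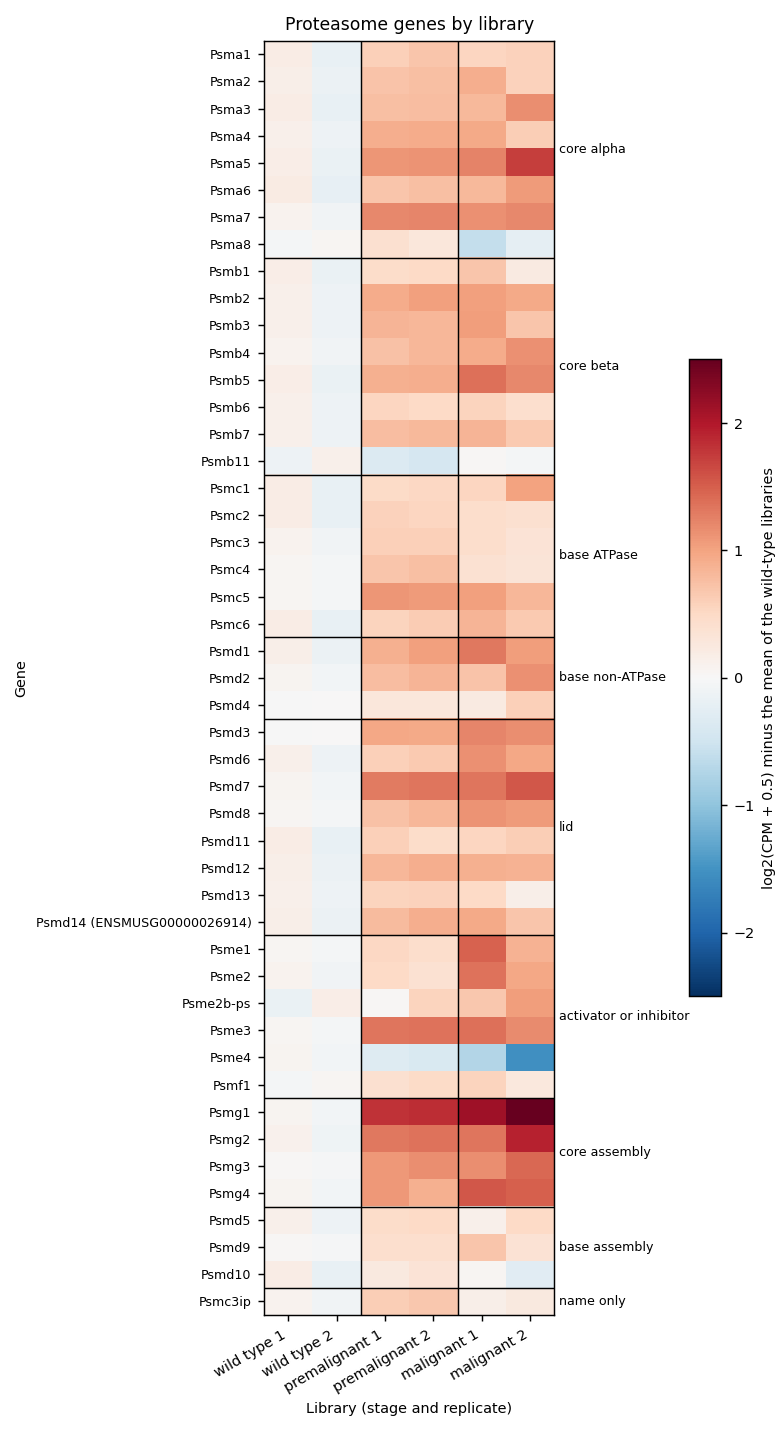
Heat map of the 47 proteasome genes tested (rows, grouped by role) in the 6 libraries (columns), as log2(CPM + 0.5) minus the mean of the 2 wild-type libraries. Most rows are red in the premalignant and malignant columns, Psmg1 most of all, while Psme4 is blue and Psmd10 and Psmb11 stay pale.

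**Figure D2:**
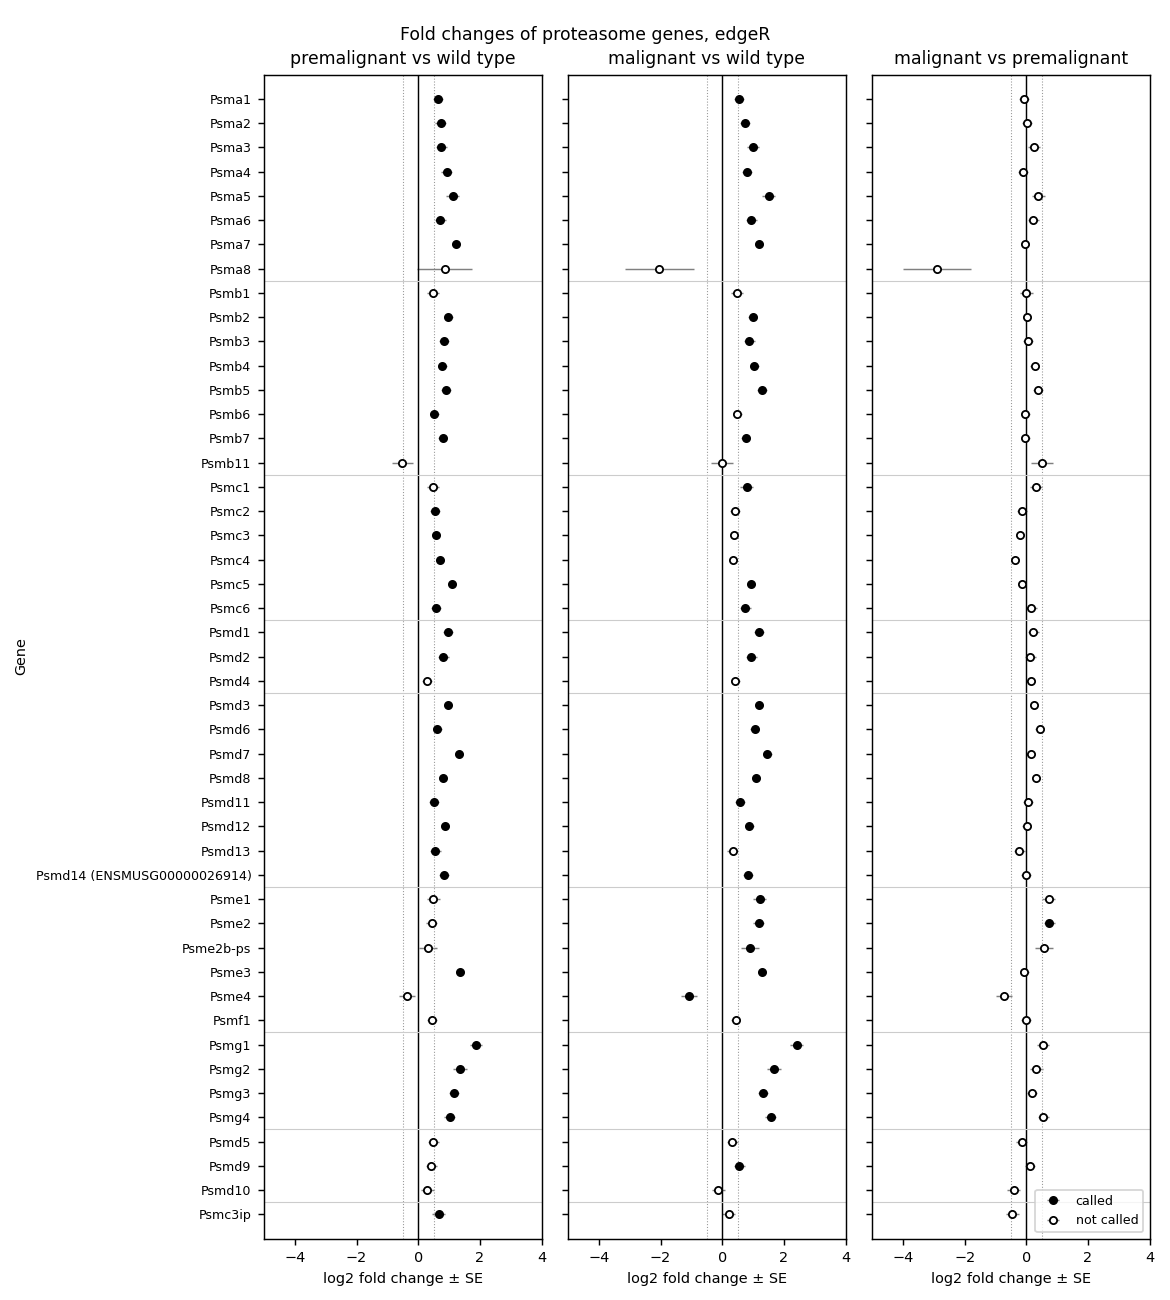
Log2 fold change (points) with its standard error (bars) for each gene in the 3 comparisons, from the fit of all 6 libraries, with filled points for called genes and dotted lines at 0.5 and -0.5. In the panels against wild type 34 points (premalignant) and 33 points (malignant) are filled on the right and Psme4 is filled on the left in malignant cells. In malignant against premalignant Psme2 is the filled point.

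The catalytic β subunits were described first, since they carry the proteolytic sites. Psmb5, the chymotrypsin-like subunit, stood at 70.1 and 55.7 CPM in wild-type, 117 and 118 CPM in premalignant and 162 and 143 CPM in malignant libraries. The stages did not overlap, and both comparisons with wild type passed the test, with log2 fold changes of 1.28 ± 0.16 (SE; adjusted p = 0.0021) in malignant and 0.90 ± 0.16 (adjusted p = 0.01) in premalignant cells. Psmb7, the trypsin-like subunit, stood at 112 and 93.4 CPM in wild type, 175 and 179 in premalignant and 185 and 161 in malignant. Both Myc-driven stages were above wild type and overlapped each other, and the log2 fold changes against wild type were 0.75 ± 0.15 (adjusted p = 0.0095) and 0.79 ± 0.15 (adjusted p = 0.013). Psmb6, the caspase-like subunit, stood at 95.8 and 80.1 CPM in wild type, 128 and 124 in premalignant and 128 and 117 in malignant. It was called higher in premalignant cells (0.52 ± 0.14, adjusted p = 0.039), whereas in malignant cells its log2 fold change of 0.48 ± 0.14 had an adjusted p of 0.037 and missed the minimum fold.

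Among the structural β subunits, Psmb4 stood at 125 and 112 CPM in wild type, 196 and 209 in premalignant and 226 and 261 in malignant, and its log2 fold change in malignant against wild type, 1.04 ± 0.14 (adjusted p = 0.0028), was the second highest of the β subunits. Psmb2 and Psmb3 also rose in malignant cells, with log2 fold changes of 0.99 and 0.88. Psmb1 was called in no comparison, at 156 and 125 CPM in wild type, 191 and 198 in premalignant and 227 and 162 in malignant. Its levels in both Myc-driven stages were nevertheless above both wild-type libraries, with log2 fold changes of 0.47 ± 0.20 (adjusted p = 0.11) and 0.47 ± 0.20 (adjusted p = 0.12). In all, 5 of 8 β subunits were called higher in malignant and 6 of 8 in premalignant against wild type (24.9% and 19% of all genes).

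Of the α subunits, 7 of 8 were called higher in each comparison with wild type (24.9% of all genes in malignant and 19% in premalignant). Psma5 stood at 62.0 and 48.7 CPM in wild-type, 119 and 121 CPM in premalignant and 130.1 and 183 CPM in malignant libraries, and malignant replicate 2 was the highest library. Its log2 fold changes were 1.50 ± 0.21 (adjusted p = 0.0031) and 1.11 ± 0.21 (adjusted p = 0.012) in malignant and premalignant cells, the largest of the core genes in the former. Psma7 stood at 95.5 and 84.2 CPM in wild type, 208 and 211 in premalignant and 199 and 207 in malignant, so that the 4 Myc-driven libraries lay within a narrow range above the wild-type ones. Its log2 fold changes were 1.18 ± 0.13 (adjusted p = 0.0015) and 1.22 ± 0.13 (adjusted p = 0.0028). The other α subunits called higher in malignant cells, Psma1, Psma2, Psma3, Psma4 and Psma6, had log2 fold changes from 0.55 (Psma1) to 0.99 (Psma3).

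A pair of core genes is known from other tissues: Psma8 is the testis form of an α subunit and Psmb11 the thymus form of a catalytic β subunit. Psma8 stood at 0.228 and 0.283 CPM in wild type, 0.495 and 0.422 in premalignant and 0 and 0.143 in malignant, with 26 counts at most and 0 and 4 counts in the malignant libraries, and Psmb11 at 1.56 and 1.95 CPM in wild type, 1.28 and 1.17 in premalignant and 1.8 and 1.68 in malignant. Neither was called in any comparison. Psmb11 lies 7295 bases from Psmb5 on chromosome 14 in mm9.

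In the base, 5 of 9 genes were called higher in malignant and 7 of 9 in premalignant against wild type (24.9% and 19% of all genes). The ATPases hold the ring that unfolds substrates. Psmc5, at 81.9 and 75.5 CPM in wild-type, 169 and 165 CPM in premalignant and 161 and 140.0 CPM in malignant libraries, had the highest log2 fold changes among them, 0.94 ± 0.13 (adjusted p = 0.0033) in malignant and 1.09 ± 0.13 (adjusted p = 0.0038) in premalignant cells. Its 4 Myc-driven libraries were all far above the wild-type libraries. Psmc1 stood at 141 and 109.5 CPM in wild type, 172 and 177 in premalignant and 181 and 251 in malignant and Psmc6 rose in both stages, by 0.75 and 0.58 on the log2 scale. For Psmc1 the call held in malignant cells (0.79 ± 0.20, adjusted p = 0.023), where replicate 2 was the high library, and not in premalignant cells (0.48 ± 0.20, adjusted p = 0.12). Psmc2, Psmc3 and Psmc4 were called higher in premalignant cells, with log2 fold changes of 0.54, 0.59 and 0.72, while their values in malignant cells, 0.41, 0.38 and 0.36, were under the minimum fold. For these 3 genes both malignant libraries lay below both premalignant libraries, and none of the differences between those stages passed the test (adjusted p = 0.71, 0.45 and 0.18).

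Psmd1 and Psmd2 encode the large scaffold subunits of the base. Psmd1 stood at 130.3 and 106 CPM in wild type, 219 and 239.9 in premalignant and 294 and 243 in malignant, with log2 fold changes of 1.18 ± 0.17 (adjusted p = 0.0033) and 0.95 ± 0.17 (adjusted p = 0.01) in malignant and premalignant cells. In Psmd1, 13.1% of the exon bases are shared with Armc9 and Htr2b, and how reads on shared bases were counted is not known. Psmd2 stood at 192 and 174 CPM in wild type, 312 and 331 in premalignant and 301 and 403 in malignant, with 0.94 ± 0.18 (adjusted p = 0.0076) and 0.81 ± 0.18 (adjusted p = 0.018). For both genes the 4 Myc-driven libraries were above both wild-type libraries. The third non-ATPase subunit, the ubiquitin receptor Psmd4, was called in no comparison and stood at 102 and 103 CPM in wild type, 126 and 125 in premalignant and 120.2 and 154 in malignant.

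In the lid, 7 of the 8 genes tested were called higher in malignant and 8 of 8 in premalignant against wild type (24.9% and 19% of all genes). Psmd7, the partner of the deubiquitinase, stood at 78.2 and 70.4 CPM in wild-type, 183 and 189 CPM in premalignant and 189 and 219.9 CPM in malignant libraries. It rose by 1.46 ± 0.14 on the log2 scale in malignant (adjusted p = 0.0011) and 1.32 ± 0.14 in premalignant cells (adjusted p = 0.0028), the highest of the lid genes in both. Psmd3, a structural subunit, stood at 125 and 126 CPM in wild type, 246 and 242 in premalignant and 293 and 282 in malignant, with log2 fold changes of 1.19 ± 0.12 (adjusted p = 0.0012) and 0.96 ± 0.12 (adjusted p = 0.0039). Psmd14, the deubiquitinase itself, stood at 81.5 and 66.7 CPM in wild type, 127 and 139 in premalignant and 142 and 119.7 in malignant and rose by 0.82 and 0.85. Psmd6, Psmd8, Psmd11 and Psmd12 rose in malignant cells by 0.56 (Psmd11) to 1.09 (Psmd8) on the log2 scale. Psmd13 was called in premalignant cells (0.56, adjusted p = 0.05), with 0.33 (adjusted p = 0.16) in malignant cells. A second identifier named Psmd14, ENSMUSG00000090649, had 0 counts in all 6 libraries and was not tested. All of its exon bases are shared with the Psmd14 described above, ENSMUSG00000026914, so a count of 0 there shows nothing of its RNA.

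Of the 6 activators and inhibitors, 4 were called higher and 1 lower in malignant against wild type (24.9% and 24.3% of all genes). In premalignant against wild type 1 was called higher (19% of all genes). The counts of 1 were thus near the background. Psme3, the nuclear activator, stood at 152 and 143 CPM in wild-type, 374 and 378 CPM in premalignant and 386 and 334 CPM in malignant libraries. The 4 Myc-driven libraries lay above 300 CPM and both wild-type libraries at 152 CPM or below, with log2 fold changes of 1.29 ± 0.14 (adjusted p = 0.0014) in malignant and 1.35 ± 0.14 (adjusted p = 0.0026) in premalignant cells. Psme4, an activator linked to the degradation of acetylated histones, went the other way and stood at 424 and 386 CPM in wild-type, 323 and 311 CPM in premalignant and 242 and 139 CPM in malignant libraries. Its 3 stages did not overlap, and malignant replicate 2 was the lowest library. Psme4 was called lower in malignant against wild type (-1.09 ± 0.26, adjusted p = 0.018), and its log2 fold change in premalignant cells was -0.35 ± 0.26 (adjusted p = 0.34). It was called in malignant cells in each of the 13 other fits. The size of the difference depended on the malignant library used, being -0.71 without malignant replicate 2 and -1.53 without malignant replicate 1. Psme4 lies at chr11:30671726-30780361 and Psme3 at chr11:101177527-101184851 in mm9, both on the plus strand, and their promoters are those printed above.

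Psme1 and Psme2 form the interferon-inducible activator and lie 5911 bases apart on chromosome 14, on opposite strands. Psme1 stood at 136 and 126 CPM in wild type, 189 and 178 in premalignant and 367 and 240.4 in malignant, and Psme2 at 75.8 and 67.1 CPM in wild type, 101 and 92.5 in premalignant and 184 and 139 in malignant. In both genes the stages were ordered without overlap, and malignant replicate 1 was the highest library. In malignant against wild type, Psme1 rose by 1.21 ± 0.21 (adjusted p = 0.0065) and Psme2 by 1.18 ± 0.18 (adjusted p = 0.0037). In premalignant against wild type neither passed the test, with log2 fold changes of 0.48 ± 0.21 (adjusted p = 0.13) and 0.44 ± 0.17 (adjusted p = 0.10). Psme2b-ps, a close copy of Psme2 at 9.25 and 11.9 CPM in wild type, 10.7 and 15.7 in premalignant and 17.2 and 22.3 in malignant, rose in malignant cells by 0.90 ± 0.29 (adjusted p = 0.047), and reads of Psme2 could be counted on it. Psmf1, an inhibitor of the core particle, stood at 34.4 and 37.3 CPM in wild type, 47.4 and 49.8 in premalignant and 53.0 and 43.3 in malignant and was called in no comparison.

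Within a library the ratio of counts per exon length of Psme3 to Psme4 does not depend on the scaling of the library. It was 1.02 and 1.05 in wild type, 3.29 and 3.45 in premalignant and 4.52 and 6.84 in malignant cells. The ratio of Psme3 to Psme1, by contrast, was 0.837 and 0.847 in wild type, 1.48 and 1.59 in premalignant and 0.787 and 1.04 in malignant cells. The Psme3 to Psme4 ratio thus did not overlap between any 2 stages, while the Psme3 to Psme1 ratio set the premalignant libraries apart from both other stages. With 2 libraries against 2, an exact two-sided permutation test cannot give a p below 0.333.

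The assembly factors of the core had the largest median rise, and all 4 were called higher in both comparisons with wild type (24.9% of all genes in malignant and 19% in premalignant). Psmg1, which pairs with Psmg2 to form the chaperone on which the α ring is built, stood at 12.0 and 10.8 CPM in wild-type, 40.9 and 42.1 CPM in premalignant and 50.8 and 70.7 CPM in malignant libraries. Its log2 fold change was 2.41 ± 0.21 in malignant (adjusted p = 0.00084; 5.32-fold) and 1.86 ± 0.20 in premalignant cells (adjusted p = 0.0028; 3.64-fold), the largest of the 47 genes in both. All 4 Myc-driven libraries lay far above the wild-type libraries, and malignant replicate 2 was the highest. Psmg1 lies at chr16:96201540-96212567 on the minus strand in mm9. Its partner Psmg2 stood at 22.6 and 19.6 CPM in wild type, 53.6 and 54.8 in premalignant and 54.3 and 81.1 in malignant, with log2 fold changes of 1.68 ± 0.22 (adjusted p = 0.0025) and 1.36 ± 0.22 (adjusted p = 0.0078). Psmg3 and Psmg4, the partners in the other core chaperone, stood at 16.4 and 15.8 CPM in wild type, 34.8 and 36.5 in premalignant and 36.6 and 44.2 in malignant for Psmg3 and 12.4 and 11.3 CPM in wild type, 25.6 and 22.1 in premalignant and 35.7 and 34.2 in malignant for Psmg4. Neither gene overlapped between wild type and the Myc-driven stages, with log2 fold changes in malignant cells of 1.33 ± 0.16 (adjusted p = 0.0021) for Psmg3 and 1.56 ± 0.17 (adjusted p = 0.0015) for Psmg4. In premalignant cells they were 1.14 and 1.01, and both passed the test.

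Of the 3 chaperones of the base, 1 was called higher in malignant and none in premalignant against wild type (edgeR gave 2 higher at an unadjusted p under 0.05 in premalignant cells, and DESeq2 called 0). Among all genes 24.9% and 19% were called higher, so these counts were near the background. Psmd9 was called in malignant cells, at 26.7 and 25.9 CPM in wild type, 35.3 and 35.5 in premalignant and 43.1 and 33.9 in malignant, with a log2 fold change of 0.55 ± 0.17 (adjusted p = 0.04). That call held in 4 of the 13 other fits. Psmd5 stood at 45.1 and 37.6 CPM in wild type, 57.1 and 58.4 in premalignant and 45.1 and 58.4 in malignant, and Psmd10, an ankyrin-repeat protein also known as gankyrin, at 26.2 and 20.1 CPM in wild type, 27.4 and 29.4 in premalignant and 23.7 and 18.7 in malignant. Neither was called in any comparison, and for both the malignant libraries overlapped the wild-type ones. In malignant against wild type the log2 fold changes were 0.32 ± 0.18 (adjusted p = 0.20) for Psmd5 and -0.13 ± 0.21 (adjusted p = 0.67) for Psmd10.

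Summed levels were also compared by group. All 48 genes together came to 4378 and 3780 CPM in wild type, 6559 and 6693 CPM in premalignant and 7193 and 6893 CPM in malignant libraries. The mean was 4079 ± 423 CPM (SD, n = 2) in wild type and 7043 ± 212 CPM (SD, n = 2) in malignant libraries, a ratio of 1.73 (1.41 on total counts; exact permutation test, two-sided p = 0.333, the smallest this design allows). The core particle summed to 1469 and 1200 CPM in wild type, 2271 and 2335 CPM in premalignant and 2472 and 2424 CPM in malignant libraries. For the base and the lid the malignant over wild-type ratios were 1.66 and 1.97. The core assembly factors went from 63.3 and 57.5 CPM in wild type to 154.8 and 155.5 CPM in premalignant and 177 and 230.2 CPM in malignant libraries, a malignant over wild-type ratio of 3.37. The activators and inhibitors had the ratio 1.35 and the base chaperones 1.23. On total counts the ratios were 1.35 for the base, 1.60 for the lid, 2.75 for the core assembly factors, 1.1 for the activators and inhibitors and 1.00 for the base chaperones, and for the last 2 groups the libraries of both stages overlapped (exact permutation test, two-sided p = 1).

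Taken as a percentage of the core sum in the same library, which does not depend on scaling, the core assembly factors were 4.31% and 4.79% in wild type, 6.82% and 6.66% in premalignant and 7.17% and 9.50% in malignant cells. The base chaperones went the other way, from 6.68% and 6.97% in wild type to 5.27% and 5.28% in premalignant and 4.53% and 4.58% in malignant cells. Neither share overlapped between any 2 stages. The lid, at 53.9% to 60.5% of the core sum, and the base, at 67.7% to 80.2%, varied less. The activators and inhibitors were at 56.6% and 64.2% in wild type, 46.0% and 43.9% in premalignant and 50.6% and 37.9% in malignant cells. These shares compare counts and not molecules, since genes differ in length.

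**Figure D3:**
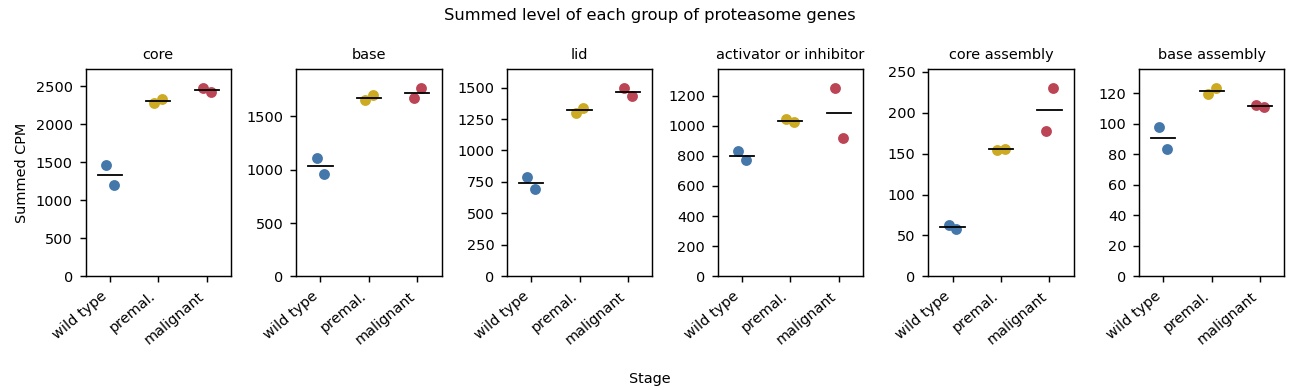
Summed CPM (vertical axes, each starting at 0) of each group of proteasome genes by stage. Points are the 6 libraries and lines are stage means (n = 2). The core assembly factors go from 57.5 to 63.3 CPM in wild type to 177 to 230.2 CPM in malignant libraries, and the base chaperones from 83.6 and 98.0 CPM to 111.1 and 111.9 CPM.

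Compared per length of joined exons (RPKM, the count scaled by gene length and by the library's total), the 14 core genes other than Psma8 and Psmb11 lay within 3.90 to 5.80 times of each other, depending on the library. Psma3 was the lowest in 5 of the 6 libraries and Psmb1 the highest in the same 5. With the length of the longest protein-coding transcript in place of joined exons, a choice made after seeing the data, the 7 β subunits lay within 1.89 times in each wild-type library, 1.38 and 1.41 times in the premalignant and 1.47 and 1.58 times in the malignant libraries. On joined exons the same spread was 4.15 and 4.02 times in wild type, 3.11 and 3.27 in premalignant and 3.20 and 3.54 in malignant libraries, so that on this length the premalignant and malignant values overlapped. The core assembly genes had mean levels of 9.52 (Psmg1) to 24.0 RPKM (Psmg4) in wild type and 41.5 (Psmg1) to 57.8 RPKM (Psmg4) in malignant cells on joined exons.

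Between the malignant and the premalignant stage, Psme2 was the member called. Its levels of 184 and 139 CPM in malignant and 101 and 92.5 CPM in premalignant libraries gave a log2 fold change of 0.74 ± 0.17 (adjusted p = 0.091). That call was lost when any wild-type or premalignant library was left out (adjusted p from 0.18 to 0.51, log2 fold change 0.68 to 0.81), under both other scalings (0.11 and 0.11) and when the 2 stages were fitted alone (0.16). Without either premalignant library 0 of all genes were called in this comparison. Psme1 had 0.73 ± 0.21 (adjusted p = 0.14), Psme4 -0.73 ± 0.26 (adjusted p = 0.19), Psmg1 0.55 ± 0.19 (adjusted p = 0.19) and Psmg4 0.55 ± 0.17 (adjusted p = 0.16). For all 4 of these genes the malignant libraries did not overlap the premalignant libraries, a pattern shown by 30 of the 47 genes in one direction or the other (19 above and 11 below), where 25.9% of all genes lay above and 25.2% below. Of the core, base, lid and assembly genes none was called between these stages by edgeR. At an unadjusted p under 0.05 edgeR gave 1 higher and 1 lower in the core, 0 and 1 in the base, 1 and 0 in the lid and 2 and 0 among the assembly factors, and DESeq2 called 1 of these genes, Psmg4, higher. Psmc3ip, the gene included by name only, stood at 12.0 and 10.5 CPM in wild type, 17.4 and 18.1 in premalignant and 12.5 and 13.5 in malignant and was called higher in premalignant against wild type (0.66 ± 0.20, adjusted p = 0.051), and 21.2% of its exon bases are shared with Mlx.

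The inducible subunits that replace the catalytic ones in the immunoproteasome were looked at for comparison. Psmb8, which takes the place of Psmb5, stood at 142 and 120.3 CPM in wild-type, 148 and 143 CPM in premalignant and 189 and 167 CPM in malignant libraries, and Psmb10, which takes the place of Psmb7, at 88.8 and 79.7 CPM in wild type, 84.3 and 79.9 in premalignant and 85.3 and 80.5 in malignant. Neither was called in any comparison by edgeR or DESeq2. In malignant against wild type 1 of them, Psmb8, had an unadjusted p under 0.05 by edgeR. Its log2 fold change of 0.44 ± 0.14 had an adjusted p of 0.05 and missed the minimum fold, with both malignant libraries above both wild-type ones. For Psmb10 the log2 fold change was -0.02 ± 0.13. Both identifiers named Psmb9 had at most 2 counts in a library and overlap each other, so Psmb9 was not tested. The ratios per exon length differed between stages. Psmb8 over Psmb5 was 0.683 and 0.728 in wild type, 0.429 and 0.410 in premalignant and 0.392 and 0.392 in malignant libraries. In Psmb5, 11.8% of the exon bases are shared with Mir686. Psmb10 over Psmb7 was 0.757 and 0.816 in wild type, 0.459 and 0.426 in premalignant and 0.440 and 0.477 in malignant libraries. In both ratios all 4 Myc-driven libraries were below both wild-type libraries. Immunoproteasome genes are also expressed in myeloid and T cells, whose markers fell over the same stages, and the part of those cells in the ratios was not tested.

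**Figure D4:**
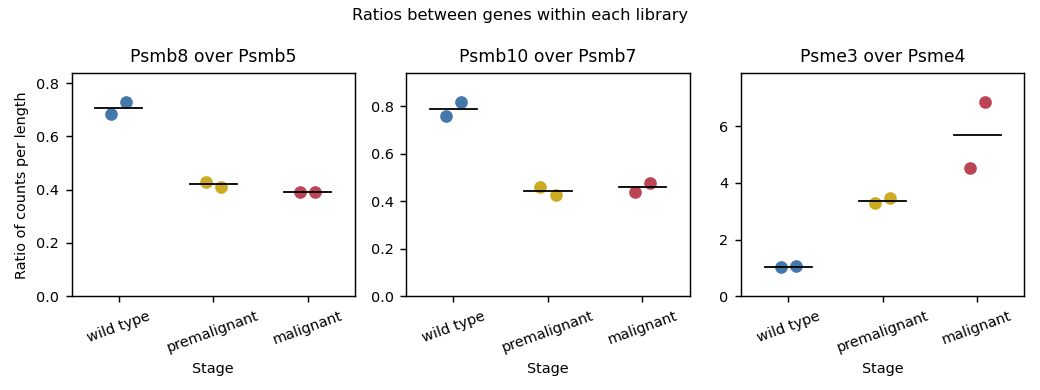
Ratios of counts per exon length (vertical axes, each starting at 0) within each library, for the inducible over the constitutive catalytic subunits Psmb8 over Psmb5 and Psmb10 over Psmb7 and for the activators Psme3 over Psme4. Points are libraries and lines are stage means (n = 2). Both catalytic ratios are lower in the 4 Myc-driven libraries than in wild type, and Psme3 over Psme4 is 1.02 and 1.05 in wild type and 4.52 and 6.84 in malignant libraries.

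Other genes of the pathway were taken from lists by role. Of 9 proteasome partners tested, 6 were called higher in malignant and 5 in premalignant against wild type (24.9% and 19% of all genes). None was called lower (24.3% and 20.3% of all genes). In malignant cells 1 was lower at an unadjusted p under 0.05 by edgeR, and DESeq2 called 1 lower. Usp14, a deubiquitinase bound to the base, stood at 64.1 and 47.5 CPM in wild type, 137 and 133 in premalignant and 174 and 221 in malignant, with log2 fold changes of 1.82 ± 0.20 (adjusted p = 0.0014) and 1.27 ± 0.20 (adjusted p = 0.0069). Uchl5, another bound deubiquitinase, stood at 47.3 and 35.3 CPM in wild type, 98.4 and 91.8 in premalignant and 177 and 83.6 in malignant, and malignant replicate 1 was far above replicate 2. It rose by 1.66 ± 0.36 in malignant cells (adjusted p = 0.012). Pomp, the maturation factor of the core, rose by 0.64 and 0.75 in malignant and premalignant cells.

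Among the genes of ubiquitin and its activating enzymes, Rps27a, which encodes ubiquitin fused to a ribosomal protein and has copies in the genome that can share reads, rose in malignant cells by 1.66 ± 0.19 (adjusted p = 0.0017). The polyubiquitin gene Ubb and the activating enzyme Uba1 were not called, with -0.22 and 0.15. Of 9 shuttle factors and Vcp cofactors, 3 were called higher and 1 lower in malignant cells, against 24.9% and 24.3% of all genes, so these counts were near the background. Ubqln4 and Rad23b, which carry ubiquitinated proteins to the proteasome, rose by 1.55 ± 0.24 (adjusted p = 0.0044) and 1.33 ± 0.17 (adjusted p = 0.0022), and Ubqln2 fell by 0.62 ± 0.19 (adjusted p = 0.043). In premalignant cells 5 of the 9 were higher (19% of all genes) and none lower, with 0 lower at an unadjusted p under 0.05 by edgeR and 0 called lower by DESeq2.

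None of 7 regulators linked to the transcription of proteasome genes was called in any comparison with wild type by edgeR or DESeq2, where 1 had an unadjusted p under 0.05 in malignant and 0 in premalignant cells. Nfe2l1, the factor that raises proteasome gene transcription when proteasome activity drops, stood at 63.1 and 73.4 CPM in wild-type, 80.8 and 87.5 CPM in premalignant and 93.0 and 82.7 CPM in malignant libraries. Its log2 fold change was 0.36 ± 0.15 (adjusted p = 0.09, missing the minimum fold) in malignant and 0.30 ± 0.15 (adjusted p = 0.16) in premalignant cells, with the Myc-driven libraries above the wild-type ones. Its proteolytic activator Ddi2 had -0.13 and -0.01, and Nfe2l2 -0.11 and 0.02. The genes of the CCAAT-binding factor, Nfya, Nfyb and Nfyc, had -0.39, -0.02 and -0.10 in malignant against wild type. The levels of these regulators in RNA say nothing of the activity of their proteins.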

How the data were processed

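The authors sequenced 50-base single-end reads from TruSeq polyA libraries, aligned them with TopHat (options by default) and counted reads per gene with HTSeq, whose options are not given in the sources used here. The submitters' processing notes name CASAVA 1.8.2, Bowtie, HTSeq, DESeq and mm9. The deposited values are raw counts per gene and library. The kit does not mark strand, so reads of overlapping genes cannot be told apart. A pair of tables of the authors' own comparisons (fold changes and p-values) was not used.

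The counts were fitted with edgeR 4.0.16 (R 4.3.3, quasi-likelihood test, TMM, filterByExpr, all 6 libraries in 1 fit). P-values were adjusted by the Benjamini-Hochberg method over 16683 genes, and calls used the thresholds of the study (adjusted p up to 0.1, log2 fold change of 0.5 or more in size). The standard error was taken from the F statistic. DESeq2 1.42.0 was an alternative. The edgeR and DESeq2 scripts were tested on simulated data. Summed levels were compared by exact two-sided permutation. RPKM used total counts and joined exons of GENCODE vM1. The study describes the libraries as biological replicates, so p-values measure the spread between these samples.

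Groups came from the sample labels. Genes given in every library were the catalytic subunits, in each class up to 2 of the largest rises and falls called in malignant against wild type, all members called between malignant and premalignant, called lower, called nowhere or not tested, and the immunoproteasome counterparts. The others shown were added after their values were seen. Alternatives changed the scaling, tool, filter, thresholds, libraries used and replicate block. The members and lists were chosen with earlier results of these data known. Some genes of the comparison lists are not reported here.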

Additional observations from a re-analysis of the deposited data

How the results depend on the processing

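All 33 genes called higher and Psme4, called lower, in malignant against wild type kept their direction in every fit in which they were tested. In all 13 other fits 24 of the 33 and Psme4 stayed called, as did 13 of the 34 higher in premalignant cells. With a minimum absolute log2 fold change of 1, 16 and 9 genes were higher in malignant and premalignant cells. Leaving out each library in turn gave 28 to 37 higher and 1 to 2 lower in malignant against wild type (2 lower also with no filter on low counts, the second being Psma8), 14 to 39 higher in premalignant against wild type, and 0 to 4 higher and 0 to 1 lower in malignant against premalignant. In that last comparison the count higher was 0 under upper-quartile scaling, total counts, the 2 stages fitted alone, an FDR of 0.05 and the minimum of 1, it was 3 with DESeq2 (1 lower) and 2 with no filter (2 lower). The cause was not tested.

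Replicate numbers were not used as pairs, as the labels tie them to nothing shared. Deviations of same-numbered libraries correlated at 0.19, 0.51 and 0.26 in malignant against wild type, premalignant against wild type and malignant against premalignant. With the replicate block 33 higher and 1 lower, 34 higher and 1 higher were called in these comparisons.

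Psma8, at 0 and 4 counts in malignant libraries, had adjusted p of 0.19 against wild type and 0.22 against premalignant. It was called lower in both with no filter on low counts and without malignant replicate 2, where the remaining library has 0 counts. With the length of the longest protein-coding transcript the spread of core levels was 3.85 to 4.24 times.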
